A study of Mus musculus with 3 samples.

Results

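Choroid plexus genes are 9 genes (Ttr, Kl, Enpp2, Calml4, Folr1, Aqp1, Clic6, Slc4a5 and Prlr) known for high expression in the choroid plexus epithelium, and they were taken from the count tables by gene symbol. All 9 were found, each in a single row, among 49585 genes listed, and all 9 were among the 25561 genes with enough counts to be tested. The study sequenced total RNA from midbrain of C57BL/6 mice at postnatal day 3, with 1 library of wild-type (WT) mice and 2 libraries of mice labelled with the genotype FGR. What these letters stand for is not said in the labels. The FGR libraries are called FGR1 and FGR2 here, after their replicate numbers. The labels name no treatment, allele, promoter or number of animals per library. They do not say whether each library came from a single animal. A p-value here covers only the spread among these libraries.

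The choroid plexus is a folded, vascular tissue inside the ventricles of the brain, covered by a single type of polarised epithelium. That epithelium secretes cerebrospinal fluid by moving sodium, chloride, bicarbonate and water across its apical face. It also carries folate, hormones and vitamins from blood into the fluid and secretes carrier proteins, of which transthyretin is the best known. The epithelium grows from the dorsal midline beside the hindbrain and forebrain ventricles, not from the midbrain itself.

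Total counts were 52874311 (WT), 58444481 (FGR1) and 46240262 (FGR2). The 9 genes together held 3240, 3082 and 2709 of these counts, or 0.00613%, 0.00527% and 0.00586%. Enpp2 and Prlr, which other brain cells also express, took 83.4%, 86.6% and 81.0% of the counts of the 9 genes. Xist, read from the inactive X chromosome of females, had 29129 counts in WT, 34285 in FGR1 and 78 in FGR2, and the Y-linked Ddx3y had 0, 2 and 2944, genes picked after their values were seen. FGR2 thus had the pattern of a male source, and WT and FGR1 that of a female source. FGR1 and FGR2 were therefore not repeats of the same RNA sample.

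In the FGR libraries the 9 genes did not move as a block. Calml4 fell 1.96-fold and was the 1 gene of 9 that passed the test, while Ttr was higher in both FGR libraries without passing it. Kl, Folr1, Aqp1, Clic6 and Enpp2 were lower in both FGR libraries without passing the test, and Slc4a5 and Prlr lay on both sides of WT. The test was edgeR's quasi-likelihood F test over all 25561 genes, with p-values adjusted by Benjamini-Hochberg and called under 0.05. It called 1 of the 9 genes lower, beside 2.59% of all genes tested, and 0 higher, beside 1.66%. At an unadjusted p under 0.05, the count was 1 lower (Calml4, beside 9.92% of all genes) and 1 higher (Ttr, beside 8.41%). DESeq2 called 0 of the 9 in either direction, beside 1.4% of genes lower and 0.745% higher, and gave no adjusted p for 4 of them, which had low counts. With a single WT library, each gene's own spread came from FGR1 against FGR2 (1 residual degree of freedom). The edgeR fit drew it towards a trend over all genes tested, so the p-values also rest on other genes. WT was taken to vary as much as FGR. FGR1 and FGR2 also differed in Xist and Ddx3y, so the spread holds any difference between the sexes. The fold change of FGR against WT holds part of it too, as only FGR2 had the male pattern.

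Both FGR libraries lay below WT for 6 of the 9 genes, beside 38.2% of all genes tested, and both lay above WT for 1, beside 38.5%. The median log2 fold change of the 9 genes was -0.38, against 0.0051 over all genes tested. Taken library by library, the median log2 ratio to WT was -0.48 in FGR1 and -0.18 in FGR2. In a bulk sample, the number of choroid plexus cells, their RNA per cell and the share of other cells that express these genes cannot be told apart.

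Levels between genes were compared per length, as the deposited RPKM (reads per kilobase of gene length, scaled to the library total). Enpp2 stood first in every library, at 11.3 RPKM (WT), 9.33 (FGR1) and 10.5 (FGR2), above 76.3% to 80.1% of tested genes. Slc4a5 had the lowest value in every library, at 0.101, 0.124 and 0.0932 RPKM, but in FGR1 its counting interval overlapped those of Aqp1, Folr1 and Clic6. The other 7 genes lay between 0.163 and 3.44 RPKM. Ttr, the classical abundant transcript of the choroid plexus, was at 0.559 RPKM in WT, 1.02 in FGR1 and 3.44 in FGR2. Its level was above 22.2%, 33.1% and 54.5% of tested genes in these libraries, and Enpp2 was 20.2, 9.10 and 3.04 times as high as Ttr. In FGR2 the interval of Ttr lay above those of all members but Enpp2. In FGR1 it overlapped that of Prlr, and in WT it overlapped those of all members but Enpp2 and Slc4a5, so its place in the order is not resolved in these libraries. Kl, Folr1, Clic6 and Aqp1 had overlapping counting intervals in each library, so their order among themselves is not resolved, and in FGR2 that of Calml4 overlapped all 4 of them.

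**Figure D1:**
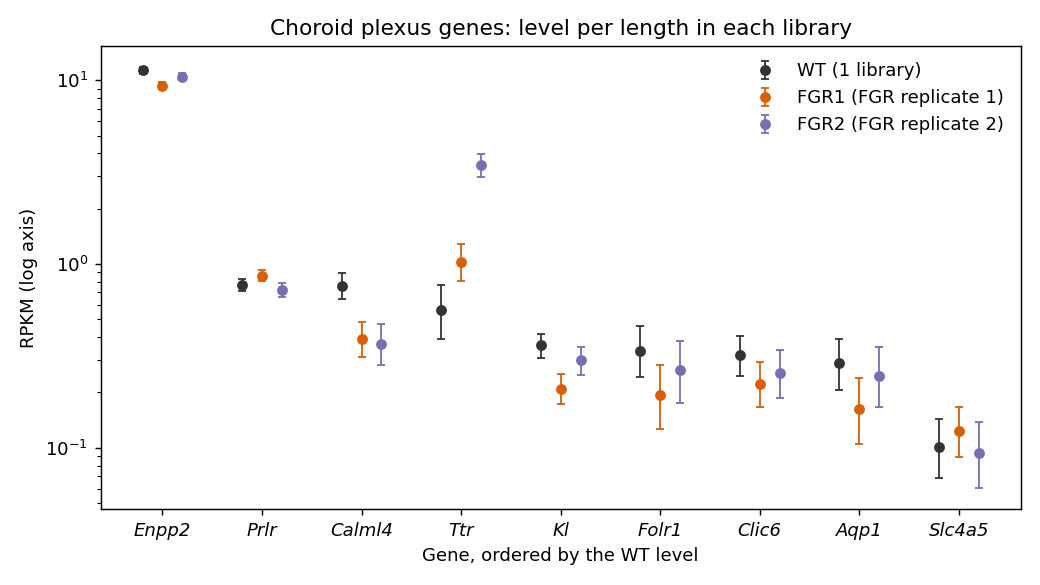
Level of each of the 9 genes in RPKM (log axis) in the WT library and the 2 FGR libraries, with points for libraries and bars for the exact 95% Poisson interval of the count. Ttr is spread from 0.559 RPKM in WT to 3.44 RPKM in FGR2, whereas Enpp2 stays between 9.33 and 11.3 RPKM.

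Among the secreted proteins, Ttr encodes transthyretin, which carries thyroxine and, with retinol-binding protein, retinol in cerebrospinal fluid and blood. Its counts were 36 in WT, 73 in FGR1 and 194 in FGR2, or 0.669, 1.26 and 4.24 CPM (counts relative to library size, after TMM scaling). The 3 libraries were all apart from each other, with WT lowest and FGR2 highest. The ratio to WT was 1.88 in FGR1 (exact 95% binomial interval 1.25 to 2.89) and 6.35 in FGR2 (4.43 to 9.33). These intervals, like the others here, cover counting error only.

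The level in FGR2 was 3.37 times that in FGR1 (2.56 to 4.48), a larger ratio than that between FGR1 and WT. In FGR, Ttr was at 2.75 ± 2.11 CPM (SD, n = 2), and its log2 fold change was 2.01 ± 0.55 (SE, edgeR adjusted p = 0.0561). The log2 value was 2.65 without FGR1 and 0.91 without FGR2. Scaling by DESeq2 size factors or by library totals put Ttr past the threshold (edgeR adjusted p = 0.0352 and 0.0369), as did keeping genes of low count (edgeR adjusted p = 5.72e-10). Keeping genes of low count also raised the calls over all genes, to 1362 lower and 695 higher from 663 and 424. By contrast, DESeq2, limma-voom and a robust edgeR fit gave adjusted p of 0.685, 0.192 and 0.709. Leaving out genes below a mean of 1 CPM gave an edgeR adjusted p of 0.197. FGR2 was also the library that differed in Xist and Ddx3y, and the part of this in the Ttr level was not tested.

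Kl encodes Klotho, a membrane protein that lets FGF receptors bind FGF23 and that is also shed into cerebrospinal fluid. Its counts were 178 in WT, 114 in FGR1 and 129 in FGR2, or 3.31, 1.97 and 2.82 CPM. Both FGR libraries were below WT, and FGR1 was the lowest. The ratio to WT was 0.594 (0.466 to 0.756) in FGR1 and 0.853 (0.675 to 1.08) in FGR2, and the latter interval included 1. The log2 fold change was -0.48 ± 0.24 (SE, edgeR adjusted p = 0.304).

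Enpp2 encodes autotaxin, a secreted enzyme that makes lysophosphatidic acid and that cells of the oligodendrocyte lineage and of the meninges also produce. It had the most counts of the 9 genes, with 2076 (WT), 1893 (FGR1) and 1681 (FGR2), or 38.6, 32.6 and 36.8 CPM. Both FGR libraries were below WT, and FGR2 was closer to WT than to FGR1. The ratio to WT was 0.846 (0.795 to 0.901) in FGR1 and 0.954 (0.894 to 1.02) in FGR2. The log2 fold change was -0.15 ± 0.09 (SE, edgeR adjusted p = 0.418).

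Calml4 encodes a calmodulin-like protein of epithelial brush borders. Its counts were 147 in WT, 83 in FGR1 and 62 in FGR2, or 2.73, 1.43 and 1.36 CPM. Both FGR libraries were at close to the same level, well below WT. The ratio to WT was 0.524 (0.395 to 0.690) in FGR1 and 0.497 (0.363 to 0.673) in FGR2, and the ratio between the FGR libraries was 0.948 (0.671 to 1.33). Calml4 fell from 2.73 CPM to 1.39 ± 0.0527 CPM (SD, n = 2). With 83 and 62 counts in the FGR libraries, this SD is smaller than the counting error. The log2 fold change of Calml4 was -0.97 ± 0.24 (SE, edgeR adjusted p = 0.0358). The call was lost in DESeq2 (adjusted p = 0.512) and when genes below a mean of 1 CPM were left out (edgeR adjusted p = 0.0963), and the log2 value was -1.02 and -0.93 without FGR1 and without FGR2, in that order.

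The promoter of Calml4 is shown because it was the member called, and that of Aqp1 because it held a match to a searched motif. Each line gives the 250 bases before the RefSeq transcription start, 5′ to 3′ on the + strand, GRCm38.p6. Capitals mark matches on either strand to the OTX2 core TAATCC, the forkhead motif TGTTTAC that FOXJ1 can bind, or the core RFX motif GTTGCC.
Calml4, chr9:62857854-62858103: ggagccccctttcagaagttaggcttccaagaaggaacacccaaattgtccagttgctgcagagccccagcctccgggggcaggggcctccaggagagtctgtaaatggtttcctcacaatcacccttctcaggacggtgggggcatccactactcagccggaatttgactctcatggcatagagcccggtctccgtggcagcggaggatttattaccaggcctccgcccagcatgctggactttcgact
Aqp1, chr6:55336049-55336298: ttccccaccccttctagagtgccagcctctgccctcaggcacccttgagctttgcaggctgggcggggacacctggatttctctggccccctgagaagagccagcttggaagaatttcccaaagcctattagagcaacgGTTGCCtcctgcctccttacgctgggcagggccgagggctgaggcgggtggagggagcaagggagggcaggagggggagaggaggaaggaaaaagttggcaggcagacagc
The Calml4 window held none of these motifs, and the Aqp1 window held GTTGCC at 111 bases before the start. RefSeq promoters were searched for 5 of the 9 genes (Aqp1, Calml4, Kl, Prlr and Slc4a5) in 7 windows. Of these windows 2 held a match, the other being TGTTTAC before 1 of the 3 Prlr starts. The promoter of Ttr was not sought, and none was at hand for Enpp2, Folr1 and Clic6. Of 32851 promoter windows of the same length, 6.25% held TAATCC, 3.17% TGTTTAC and 10.4% GTTGCC.

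Of the receptors, Folr1 encodes folate receptor alpha, which brings folate across the choroid plexus into cerebrospinal fluid. Its counts were 41 in WT, 26 in FGR1 and 28 in FGR2, or 0.762, 0.448 and 0.613 CPM. Both FGR libraries were lower than WT. The ratio to WT was 0.588 (0.346 to 0.985) in FGR1 and 0.804 (0.479 to 1.33) in FGR2. The log2 fold change was -0.53 ± 0.43 (SE, edgeR adjusted p = 0.575).

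Prlr encodes the prolactin receptor, which hypothalamic neurons express as well. It had 625 counts in WT, 775 in FGR1 and 514 in FGR2, or 11.6, 13.4 and 11.2 CPM. WT lay between the FGR libraries, so the groups overlapped. The log2 fold change was 0.09 ± 0.15 (SE, edgeR adjusted p = 0.822). It was -0.06 without FGR1 and 0.20 without FGR2.

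Of the channels and transporters, Aqp1 encodes the apical water channel of the choroid plexus, which red blood cells also carry. Its counts were 40 in WT, 25 in FGR1 and 30 in FGR2, or 0.743, 0.431 and 0.656 CPM. Both FGR libraries were below WT, with FGR2 close to it. The ratio to WT was 0.580 (0.337 to 0.980) in FGR1 and 0.883 (0.531 to 1.45) in FGR2, and the log2 fold change was -0.47 ± 0.44 (SE, edgeR adjusted p = 0.644).

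Clic6, a member of the chloride intracellular channel family, had 66 counts in WT, 51 in FGR1 and 46 in FGR2, or 1.23, 0.879 and 1.01 CPM. Both FGR libraries were below WT, and both intervals of the ratio to WT included 1. The log2 fold change was -0.38 ± 0.32 (SE, edgeR adjusted p = 0.588). Slc4a5, which encodes a sodium bicarbonate cotransporter of the apical membrane, had 31, 42 and 25 counts, or 0.576, 0.724 and 0.547 CPM. WT again lay between the FGR libraries, and the log2 fold change was 0.15 ± 0.44 (SE, edgeR adjusted p = 0.902), or -0.08 without FGR1 and 0.33 without FGR2.

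**Figure D2:**
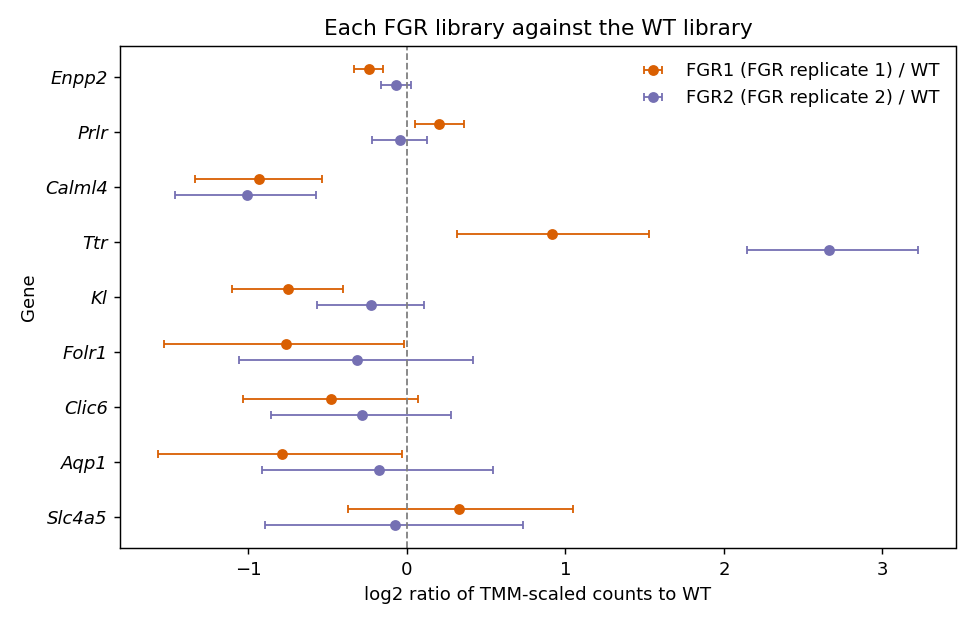
Log2 ratio of TMM-scaled counts to WT for each of the 9 genes, FGR1 (orange) and FGR2 (purple), with exact 95% binomial intervals that cover counting error only. Calml4 and Ttr are the 2 genes whose intervals lie on 1 side of 0 in both FGR libraries, Calml4 below and Ttr above.

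Counted over the 9 genes, the interval of the ratio to WT left out 1 for 7 genes in FGR1 (5 lower, 2 higher) and for 2 genes in FGR2 (1 lower, 1 higher). Between the FGR libraries it left out 1 for 4 genes. Ttr, Kl and Enpp2 were higher in FGR2 than in FGR1, and Prlr was lower. The share of all tested genes whose interval left out 1 was not computed. These counts therefore do not set the members apart from other genes. Leaving out Enpp2 and Prlr, the other 7 genes summed to 539 counts in WT, 414 in FGR1 and 514 in FGR2, of which Ttr gave 36, 73 and 194.

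A further 56 genes expressed by the choroid plexus were grouped by role, and all 56 were tested. Of these, 6 fell and 1 rose, beside 2.59% and 1.66% of all genes tested, with a median log2 fold change of -0.20. Both FGR libraries were below WT for 34 and above it for 10, beside 38.2% and 38.5% of all genes tested. DESeq2 called Col8a2, Slc13a4 and Igfbp2 lower and none of the 56 higher, beside 1.4% and 0.745% of genes. Many of them are also expressed in midbrain, meninges or ependyma, so they do not mark the choroid plexus alone. Among 9 transcription factor genes, with a median of -0.44, 1 rose and 1 fell. Otx2, which specifies the choroid plexus and also patterns the midbrain, rose from 33.9 to 44.9 ± 2.16 CPM (edgeR adjusted p = 0.0120). Lmx1a, a gene of the roof plate and of dopamine neurons, fell from 11.1 to 6.31 ± 0.881 CPM (edgeR adjusted p = 0.00889). DESeq2 called neither (adjusted p = 0.0945 and 0.0681). The cilia regulator Foxj1 stood at 19.5 CPM (WT) and 14.4 ± 0.400 CPM (FGR) (edgeR adjusted p = 0.0640).

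Of 15 genes of ion and water transport, 0 were called, with a median of -0.05 (5 had an unadjusted p under 0.05 in edgeR, and DESeq2 called 0). The sodium pump subunit gene Atp1b1, with the most counts of them, stood at 299.9 CPM (WT) and 260.7 ± 13.6 CPM (FGR) (edgeR adjusted p = 0.226). Of 8 genes of junctions and matrix, 2 fell and the median was -0.65. These were the collagen gene Col8a2, from 13.1 to 6.38 ± 0.728 CPM, and the keratin gene Krt18, from 1.60 to 0.308 ± 0.00287 CPM (edgeR adjusted p = 0.00136 and 0.00308). Krt18 had 18 counts in FGR1 and 14 in FGR2, so its SD is smaller than the counting error. DESeq2 gave Krt18 no adjusted p, and its mean was below 1 CPM. Of 14 genes of nutrient and hormone transport, the sulphate transporter gene Slc13a4, which the meninges share, fell from 15.5 to 5.76 ± 1.63 CPM (edgeR adjusted p = 6.23e-04), and the median was -0.03. Of 10 genes of secreted and surface proteins, 2 fell, Igfbp2 (1.56-fold) and Igf2 (1.90-fold), growth factor axis genes that the meninges also express, and the median was -0.19. The Igf2 call was lost in DESeq2 (adjusted p = 0.553) and in a robust edgeR fit (adjusted p = 0.610).

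Of 40 tested genes that are pathway partners or relatives of members, 4 fell and 0 rose, beside 2.59% and 1.66% of all genes tested. Their median log2 fold change was -0.16. Of 8 tested partners of Klotho (FGF receptors, FGF23 and related co-receptors), 0 were called, with a median of -0.12 (1 at an unadjusted p under 0.05 in edgeR, and DESeq2 called 0). Of 11 genes of lysophosphatidic acid signalling or related to Enpp2, with a median of -0.26, 3 fell. They were the receptor gene Lpar1 (1.41-fold), the phosphatase gene Plpp3 (1.20-fold) and Enpp1, a relative of Enpp2 (1.93-fold). DESeq2 called none of these 3 (adjusted p = 0.135, 0.207 and 0.0660). Of 7 tested genes of prolactin signalling and of 8 of folate handling, 0 were called in edgeR (4 and 1 at an unadjusted p under 0.05) or in DESeq2, and their medians were 0.17 and -0.02. Prl itself had 0 counts in every library. Of 6 tested genes of thyroid hormone and retinol handling, with a median of -0.62, 1 fell, Dio2, which encodes the enzyme that activates thyroxine, from 3.55 to 1.41 ± 0.264 CPM (edgeR adjusted p = 0.00561, DESeq2 adjusted p = 0.147). The calls of Otx2, Lmx1a, Igf2, Lpar1, Plpp3, Enpp1 and Dio2 were lost when genes below a mean of 1 CPM were left out (edgeR adjusted p from 0.0543 to 0.0994), and that of Plpp3 also in limma-voom (adjusted p = 0.0602).

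Markers of other cell types that the samples could hold were read beside the members. Over all genes tested, edgeR called 2.59% lower and 1.66% higher. Of 13 leptomeningeal genes, 10 fell and 0 rose (median log2 fold change -0.87, DESeq2 called 0), and their summed level was 797.9 CPM (WT), 313.5 (FGR1) and 515.7 (FGR2). Kl, Enpp2, Folr1, Aqp1 and Clic6 had the same order of libraries, and the part of the meninges in their levels was not tested. Of 15 ependymal and ciliary genes, 5 fell and 0 rose (median -0.65, DESeq2 called 1 lower), and their sums were 80.2, 58.9 and 56.6 CPM, the order that Calml4 had. Their part in the Calml4 level was not tested.

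Of 9 tested oligodendrocyte genes, another source of Enpp2, 1 fell and 0 rose (median -0.10, DESeq2 called 0), and the 10 listed summed to 160.4, 142.0 and 143.7 CPM. Opalin of this list was at 0 counts in WT and FGR1. Of 6 tested erythroid genes, another source of Aqp1, 5 rose and 0 fell (median 0.68, DESeq2 called 4 higher), with sums of 209.6, 307.7 and 339.3 CPM, while Aqp1 was lower in both FGR libraries. Of 10 endothelial genes, 4 fell and 0 rose (median -0.37, DESeq2 called 0), with sums of 203.1, 157.4 and 160.8 CPM. Of 12 hypothalamic genes, another source of Prlr, 8 fell and 0 rose (DESeq2 called 3 lower and gave no adjusted p for 7), with sums of 48.4, 8.45 and 8.69 CPM. Their median was -3.17, also with Oxt at its bound. Oxt was at 0 counts in both FGR libraries, at least 16.7-fold lower against a floor of 3 counts over the group, whereas Prlr lay between 11.2 and 13.4 CPM in all libraries. The part of these cells in the members' levels was not tested.

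**Figure D3:**
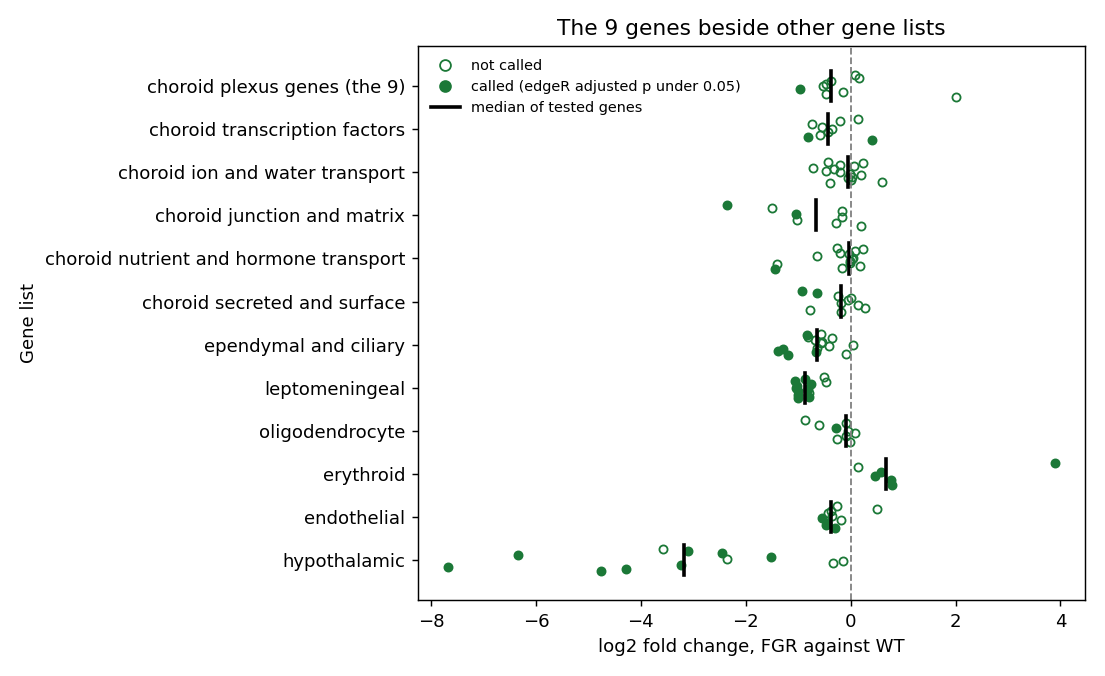
Log2 fold change of FGR against WT for tested genes of the 9 choroid plexus genes, of other choroid plexus genes by role and of markers of other cell types, with filled points for genes called by edgeR and bars for medians. The 9 genes spread from -0.97 (Calml4) to 2.01 (Ttr) with a median of -0.38, while all leptomeningeal genes lie below 0, and the lowest hypothalamic point is Oxt, at 0 counts in FGR, whose fitted value depends on the prior count.

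The profile over the 3 libraries that was nearest to the median of the 9 genes was sought among 14037 other genes with a mean of at least 1 CPM, by Euclidean distance of centred log2 CPM. Among the nearest were Rcsd1, Sdf2l1, the transcription cofactor gene Zfpm1 and the muscle actin gene Acta1, at distances from 0.00280 to 0.00842. Rcsd1, the nearest, stood at 6.02 (WT), 4.17 (FGR1) and 5.21 (FGR2) CPM. None of these 4 was called (edgeR adjusted p from 0.283 to 0.367). With 3 libraries many genes share a profile, so the likeness is a description only.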

How the data were processed

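Midbrain RNA of 1 WT and 2 FGR libraries was measured. The authors deposited, for each library, a raw read count and an RPKM per gene. Recomputed from count, gene length and library total, the RPKM differed from the deposited values by at most 4.98e-04%. The submitters' processing notes name HISAT2. Its version, the counting tool, the use of strand and the genome build: not given in the sources used here. In GENCODE M21, exons of 2 members overlap another gene, Enpp2 the gene Gm26684 and Prlr the gene Gm21973, which had at most 2 and 19 counts in any library.

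The test of the counts used edgeR 4.0.16 in R 4.3.3 (genes kept by filterByExpr with a minimum count of 10, TMM scaling, two-sided quasi-likelihood F test, Benjamini-Hochberg over all genes tested). Each standard error is the size of the log2 fold change over the root of its F statistic. Ratios of 2 libraries carry exact Clopper-Pearson 95% intervals. The tests were tried on simulated data. Alternatives were other scalings, filters and thresholds, DESeq2 1.42.0, limma 3.58.1 (voom), a robust fit, leaving out each FGR library in turn, and a table without the most abundant RNA genes.

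The members and lists were chosen with earlier results of these data known. Named were all members, the most abundant gene and the 3 smallest p-values of each other list, of which the text gives a part, and the 5 nearest profiles, with predicted genes and pseudogenes passed over. Of the genes so named, 2 are not reported here.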

Additional observations from a re-analysis of the deposited data

How the results depend on the processing

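Calml4 kept its direction under all 11 alternatives, with log2 values from -1.02 to -0.93 and adjusted p from 0.00205 to 0.512 over the 9 that had a test. For Ttr the log2 values were from 0.91 to 2.65 and adjusted p from 5.72e-10 to 0.709, and the median of the 9 genes was between -0.48 and -0.19 without one or the other FGR library. Of the 9 genes, 0 were called lower with genes below a mean of 1 CPM left out and in DESeq2, against 1 otherwise. Not all 9 were tested in these settings. The filter left out Folr1, Aqp1 and Slc4a5, and DESeq2 gave no adjusted p for 4 genes. Ttr was the 1 gene called higher with DESeq2 size factors, with library totals, with no filter on low counts and at a threshold of 0.10. Over all genes, 663 were called lower and 424 higher in edgeR (39.0% of calls higher). Library totals gave 1027 lower and 332 higher (24.4% higher). No filter gave 1362 and 695, a mean of at least 1 CPM gave 201 and 100, DESeq2 gave 233 and 124, and the threshold of 0.10 gave 1138 and 814. The cause of these changes was not tested. Of 760 values of 71 named genes under alternatives, 690 kept direction and side of the threshold or stayed within the spread of the FGR libraries. The spread was the measure used when an FGR library was left out. Leaving out either library seldom moves a value past that spread, so the count says little about these settings. Slc4a5 and Prlr changed sign without FGR1 and were still counted. The threshold of 0.10 used the main fit again, so its log2 values could not differ. No paired analysis was possible with 1 WT library, and the replicate numbers do not say that libraries are paired. Folr1, Aqp1, Clic6 and Slc4a5 had at most 66 counts in any library, so the counting intervals of their ratios are wide.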

Other observations

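Ttr had a profile of its own among the 9 genes, and the 5 genes nearest to it, a list chosen after its values were seen, are given as values. Eomes, a transcription factor gene of intermediate progenitors and of unipolar brush cells of the cerebellum, was nearest, at 0.427 CPM (WT), 0.776 (FGR1) and 3.08 (FGR2) (edgeR adjusted p = 0.0792). Neurod1, a gene of differentiating granule neurons, was at 3.12, 3.55 and 10.1 CPM (edgeR adjusted p = 0.152). Fgf3, a growth factor gene of the embryonic hindbrain, was at 0.520, 0.828 and 1.73 CPM, and Skor1 at 1.19, 2.28 and 4.11 CPM (edgeR adjusted p = 0.145 and 0.0255). Cnpy1, a gene of the midbrain-hindbrain boundary, was at 21.9, 46.3 and 63.4 CPM (edgeR adjusted p = 1.02e-04). Each of these 5 genes was lowest in WT and highest in FGR2, as Ttr was, which the choice by profile fixed. The distance to Ttr was 0.156 for Eomes and from 0.677 to 0.966 for the others. These are larger than the distances of the genes nearest to the median of the members, so the likeness is loose.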
